A study of Mus musculus with 8 samples.

Results

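CD8+ T cells in which 2 different productive TCRβ (TRB) chains were recorded are described here across the thymus, spleen and tumor of 7 mice. Members were the rows of the 14 barcode tables that carried no multiplet mark and listed both a first and a second TRB chain, and they numbered 23835. They made up 12.6% of the 188544 unmarked rows with any TRB chain, and the other 164709 rows, with a single TRB chain, served for comparison. All tables together held 253531 rows. Each row is a barcode taken as a cell, and the first chain is by construction the one with more transcripts.

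The tables came from a single-cell TCR experiment on the Parse Evercode platform, in which well barcodes added in successive rounds label the RNA of fixed cells. The first-round well identifies the loaded sample, and 8 sublibraries each held cells of every table. Mouse-155A and mouse-155C gave a thymus and a spleen table. The other 5 (mouse-164B and mouse-164C, then mouse-160A with mouse-160B and with mouse-160C) gave a thymus and a tumor table. The series covered CD8+ T cells of Pdcd1fl/fl mice and of Pdcd1 cKO mice, on a C57BL/6 background in both cases, either at baseline or bearing B16-OVA or B16-F10 melanomas. The cKO allele was deleted by a Cre under the E8I enhancer of Cd8a. The labels assign neither genotype, tumor model nor age to a table, so none of these was compared, and each mouse was set only against itself. Cells were enriched with CD8a+ isolation kits (thymus, spleen) or CD8 microbeads (tumor), and the tables hold no marker of cell identity other than the chains.

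A TRB gene is assembled in the thymus by joining a TRBV, a TRBD and a TRBJ segment, with bases added and trimmed at the joints, and the resulting CDR3 is in practice a tag of the clone. Once a working β chain pairs with the pre-TCR α chain on the thymocyte surface, further V-to-DJ joining at the other allele is stopped. This is allelic exclusion, and it leaves most αβ T cells with a single productive β chain. The TCRα (TRA) locus is under no such stop, and cells with a pair of TRA chains are common. A clone that did keep a second productive TRB chain passes both chains to all its daughters.

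The CDR3 sequences below belong to pairs of clearly different TRB chains (CDR3s more than 1 residue apart) that occurred together in at least 5 rows of a table. Among unmarked rows with both chains or with the rarer chain alone, most held both. These pairs are shown because their pairing recurred across separate barcodes. Bases are read 5′ to 3′ from the deposited chain annotation, in lower case, with the bases between the aligned V and J segments (the D segment and added bases) in capitals.
Mouse-164C tumor, TRBV12-2 with TRBJ2-5: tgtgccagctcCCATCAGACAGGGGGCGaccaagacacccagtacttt
Mouse-164C tumor, TRBV31_1 with TRBJ1-1: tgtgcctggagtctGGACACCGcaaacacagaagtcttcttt
Mouse-164B tumor, TRBV14 with TRBJ1-2: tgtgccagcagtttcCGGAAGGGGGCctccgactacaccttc
Mouse-164B tumor, TRBV29 with TRBJ2-7: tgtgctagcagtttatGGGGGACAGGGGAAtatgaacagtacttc
Mouse-164B tumor, TRBV15 with TRBJ1-1: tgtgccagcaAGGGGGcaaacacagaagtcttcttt
Mouse-164B tumor, TRBV16 with TRBJ1-1: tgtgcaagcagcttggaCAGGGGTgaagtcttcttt
Mouse-160A tumor, TRBV13-2 with TRBJ2-1: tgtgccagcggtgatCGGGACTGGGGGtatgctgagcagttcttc
Mouse-160A tumor, TRBV4 with TRBJ2-4: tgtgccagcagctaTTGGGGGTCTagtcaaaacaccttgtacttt
Mouse-160B thymus, TRBV29 with TRBJ1-1: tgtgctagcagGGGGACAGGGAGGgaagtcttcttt
Mouse-160B thymus, TRBV29 with TRBJ1-2: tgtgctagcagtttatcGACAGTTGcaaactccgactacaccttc

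A second set shows the opposite case, in which the second chain was almost a copy of the first. These 3 pairs recurred most often among members whose CDR3s differed at no more than 1 residue, and the base that differs is in capitals.
Mouse-160C tumor, TRBV13-2 with TRBJ1-1, common form: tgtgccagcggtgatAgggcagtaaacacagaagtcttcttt
Mouse-160C tumor, TRBV13-2 with TRBJ1-1, rare form: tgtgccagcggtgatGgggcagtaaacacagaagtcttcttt
Mouse-160A tumor, TRBV13-1_1 with TRBJ2-4, common form: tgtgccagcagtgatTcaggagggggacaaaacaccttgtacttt
Mouse-160A tumor, TRBV13-1_1 with TRBJ2-4, rare form: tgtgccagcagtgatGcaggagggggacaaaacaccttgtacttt
Mouse-164B tumor, TRBV13-1_1 with TRBJ2-7, common form: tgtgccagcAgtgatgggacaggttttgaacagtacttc
Mouse-164B tumor, TRBV13-1_1 with TRBJ2-7, rare form: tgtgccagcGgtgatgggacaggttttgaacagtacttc

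The depth of the rows set what could be seen. The mean number of TRB transcripts (molecules counted per chain) was 2.88 to 4.30 per row in the thymus tables, 1.63 and 1.88 in the spleen tables and 2.79 to 4.74 in the tumor tables. Between 43.9% and 71.2% of rows had a single TRB transcript and could not show a second chain. The multiplet mark followed chain number alone. Among 205970 rows whose chains were all annotated, 17682 were marked, all of them had over 2 TRB or over 2 TRA chains, and 0 rows with over 2 chains were unmarked. A barcode holding a pair of cells that each gave 1 TRB and 1 TRA chain would therefore stay among the members. No barcode occurred in more than 1 table.

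Another feature of the barcodes touches most results. Of 258096 TRB chain records, 13.01% had the same V gene and CDR3 recorded with more transcripts in a barcode that differed only in its first-round well. The same was true of 3.93% for barcodes that differed only in the second-round well, 3.36% for the third-round well and 0.358% for the sublibrary. Such chains, called shared-barcode chains here, had 1 transcript in 98.3% of the 30675 one-TRB rows concerned and were 0.0916% of first or only chains in rows with at least 4 TRB transcripts. Among second chains of members with at least 4 TRB transcripts they were 4.22%. Their origin was not tested, and results are given with and without them where they matter.

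How common members were in each tissue was examined first. In the thymus, the share of TRB-bearing rows with 2 TRB chains was lowest in mouse-155C (6.93%) and mouse-155A (8.15%). In the others it was 9.66% (mouse-160C), 10.9% (mouse-160A), 12.4% (mouse-160B), 12.5% (mouse-164B) and 13% (mouse-164C). In the spleen it was 7.30% (mouse-155A) and 5.37% (mouse-155C). In the tumor it was 13.4% in mouse-160C, 14.2% in mouse-164B, 14.97% in mouse-160B, 15.4% in mouse-160A and 17.1% in mouse-164C. All 5 tumor tables lay above all 9 others, and both spleen tables lay below their own thymus table. The exact (Clopper–Pearson) 95% intervals, which cover counting error only, spanned from 4.84% to 5.95% in the spleen of mouse-155C and from 16.7% to 17.6% in the tumor of mouse-164C.

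Over the 7 mice, the share in spleen or tumor was 1.14 times that in the own thymus (mean log2 ratio 0.19 ± 0.33, SD, n = 7), higher in 5 mice and lower in 2, which did not pass the exact two-sided sign-flip permutation test over mice (p = 0.188, adjusted p = 0.188). For the 5 mice with a tumor table the ratio was 1.29 (log2 0.37 ± 0.13, SD, n = 5) and was above 1 in all 5. The exact permutation p was 0.0625, the smallest that 5 mice can give, and the adjusted p was 0.070. Adjusted values here and below are by Benjamini–Hochberg over 19 such tests. When second chains that were frequent single chains of the same table (defined below) were counted as absent, the direction turned, to log2 -0.17 over the 7 mice and -0.12 over the 5, and neither value passed the test. Frequent chains were 8.49% to 50.4% of second chains in the tumor and 1.26% to 4.62% in the thymus. This step therefore removes a larger share of members from tumors by construction.

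Members were a larger share of deep than of shallow rows, and rows were also compared at equal depth. Among rows with exactly 2 TRB transcripts, 12.6% to 20.3% of thymus rows, 14.5% and 17.4% of spleen rows and 19.0% to 24.8% of tumor rows were members. Both spleen tables then lay below their own thymus table (14.5% against 20.3% in mouse-155A, 17.4% against 18.8% in mouse-155C). Each tumor table lay above its own thymus table. Among rows with 3 to 4 transcripts the shares were 12.5% to 16.3% in the thymus, 17.4% and 17.8% in the spleen and 22.3% to 31.9% in the tumor, which was below the share at 2 transcripts in 4 thymus tables (the largest step from 20.3% to 12.9% in mouse-155A) and in mouse-160C tumor. Among rows with 9 to 16 transcripts, where every table had its highest share of these depths, the shares were 21.8% to 36.2% in the thymus, 37.7% and 41.7% in the spleen and 37.1% to 48.3% in the tumor. Each row with at least 4 TRB transcripts was then thinned to 4, by the exact probability that both chains would remain. Shallower rows, 3309 to 23021 per table, were left out. Rows kept were 1286 of 10595 in the spleen of mouse-155A and 535 of 6438 in that of mouse-155C. In the thymus of these mice they were 1961 of 8772 and 1348 of 6452.

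At 4 transcripts, the thymus share was 12.6% (mouse-155C), 14.1% (mouse-155A), 14.8% (mouse-160C), 17.8% (mouse-160A), 18.1% (mouse-160B), 18.2% (mouse-164B) and 19.9% (mouse-164C). The spleen shares were 23.9% (mouse-155A) and 20.3% (mouse-155C). The tumor shares were 21.2% (mouse-160A), 23.7% (mouse-160C), 27.7% (mouse-164B), 29.6% (mouse-160B) and 34.7% (mouse-164C). The thymus table was the lower one in every mouse, and no thymus value reached any spleen or tumor value.

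At this depth, members were 1.56 times as common in spleen or tumor as in the own thymus (log2 0.64 ± 0.18, SD, n = 7), higher in 7 of 7 mice (exact sign-flip permutation test, p = 0.0156, the smallest that 7 mice can give, adjusted p = 0.033). For the 5 mice with a tumor table alone, the ratio was 1.53 (log2 0.61 ± 0.21, SD, n = 5) and was above 1 in all 5. This did not pass (exact permutation p = 0.0625, the smallest that 5 mice can give, adjusted p = 0.070). In rows with exactly 2 transcripts, by contrast, both spleen tables lay below their own thymus table. Thinning to 8 transcripts gave a log2 ratio of 0.66 over the 7 mice, with 114 and 41 rows in the spleen tables. The difference was smaller and did not pass the test when frequent second chains were counted as absent (log2 0.24, exact permutation p = 0.25 over 7 mice).

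**Figure D1:**
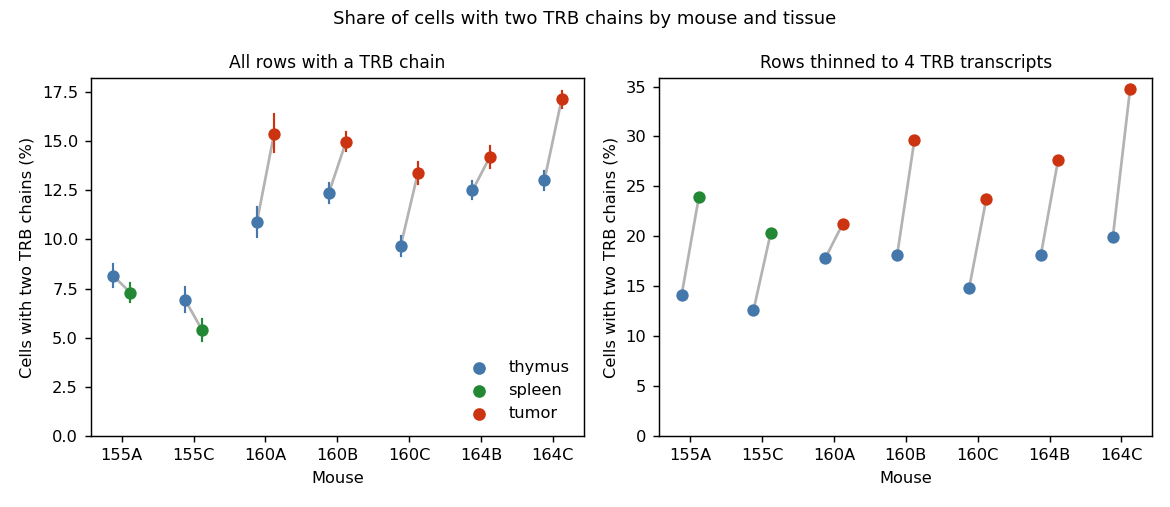
Share of TRB-bearing rows with 2 TRB chains (%), for the thymus and the spleen or tumor of each of 7 mice, joined by a line. The left panel shows all rows with exact 95% binomial intervals and the right panel, on its own scale, the share after thinning to 4 TRB transcripts, where spleen and tumor lie above the own thymus in 7 of 7 mice.

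The second chain was usually recorded from very few molecules. Over all members the median was 4 transcripts for the first chain and 1 for the second, and 71.4% of second chains had 1 transcript. By table, the share of second chains with 1 transcript ran from 65.8% to 82.7% in the thymus, was 82.4% and 88.2% in the spleen and ran from 64.9% to 73.6% in the tumor. Rows with 1 transcript of each chain made up 12.9% to 28.0% of thymus members, 33.8% and 43.1% of spleen members and 10.2% to 24.2% of tumor members. These rows have a ratio of 1 that rests on a pair of molecules.

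The median transcript ratio of second to first chain was 0.33 to 0.50 in the thymus, 0.50 and 0.60 in the spleen and 0.25 to 0.50 in the tumor. It was higher than in the own thymus in 5 of 7 mice and lower in 1, by 0.080 ± 0.098 (SD, n = 7), and this did not pass the test (exact sign-flip permutation p = 0.094, adjusted p = 0.099). In members with at least 8 TRB transcripts the medians were lower, 0.11 to 0.14 in the thymus, 0.33 and 0.50 in the spleen and 0.14 to 0.25 in the tumor. Among these deeper members the difference from the own thymus was 0.14 and passed (exact permutation p = 0.0156 over 7 mice), with only 46 and 18 such members in the spleen tables. A lower limit of 8 does not match the depth of the tissues, and the ratio depends on depth. Whether the difference remains at matched depth was not tested. A balanced second chain, with at least 0.5 of the transcripts of the first, was found in 16.3% to 23.9% of deep thymus members, 37.0% and 55.6% of the few deep spleen members (mouse-155A, mouse-155C) and 21.7% to 30.1% of deep tumor members.

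What kind of chain the second one was differed between tables, and each second chain was put in the first of 4 classes that it met. Overall 16.9% were nearly identical to the first chain (CDR3 at most 1 residue apart), 7.38% were shared-barcode chains, 12.6% were frequent chains of their table and the other 63.1% were none of these. The nearly identical class held 22.3% to 27.8% of members in the thymus, 14.7% and 19.1% in the spleen and 6.79% to 26.9% in the tumor. The frequent class held 0.843% to 3.08% of members in the thymus, 1.42% and 1.73% in the spleen and 7.27% to 48.9% in the tumor. In the tumors of mouse-160A and mouse-160C, only 30.01% and 29.1% of members had a second chain of none of the 3 classes.

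**Figure D2:**
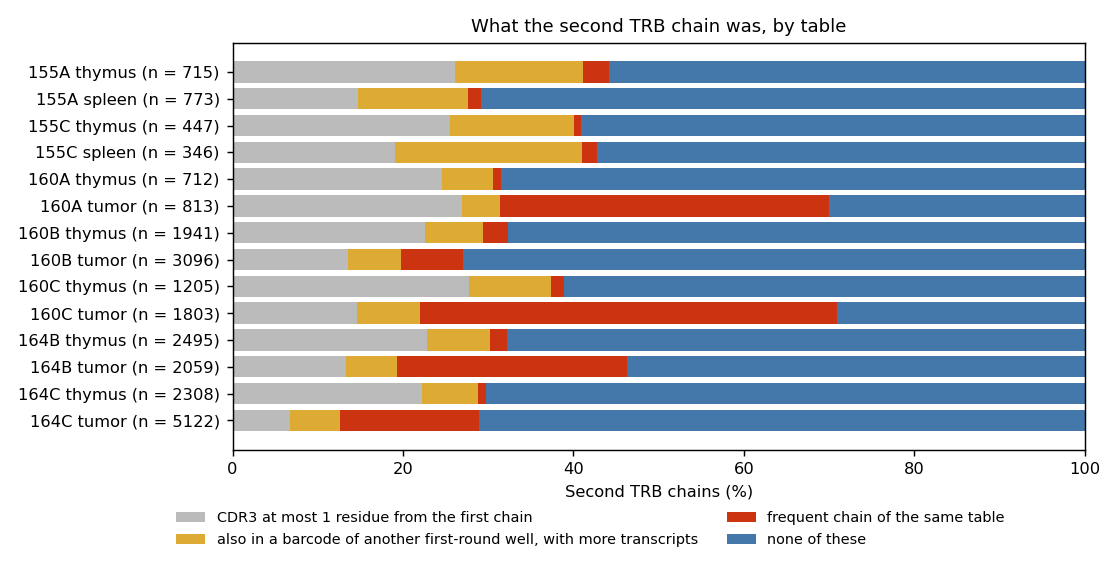
Second TRB chains (%) of each of the 14 tables, divided into 4 classes in the order of the legend, with the number of members beside each table. The frequent class is wide in the tumors of mouse-160C, mouse-160A, mouse-164B and mouse-164C and narrow in every thymus and spleen table.

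Nearly identical pairs numbered 4036, and 3975 of them had the same V and the same J gene. No member had the same CDR3 in both chains. Where both nucleotide sequences were annotated, 86.0% of 3433 such pairs were exactly 1 base apart, against a median of 17 bases for the other members. Among 2944 single-base substitutions, 46.3% were transitions, and the most frequent change from the first to the second chain was A to G (21.2%), followed by G to T (14.9%).

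The rare form was sparse in transcripts. In 92.8% of nearly identical pairs the second chain had 1 transcript, and the median ratio was 0.17 to 0.20 in the thymus against 0.40 to 0.50 for the other thymus members. The median first chain had 5 to 7 transcripts in nearly identical thymus pairs and 3 to 5 in the others. The printed rare forms were hardly ever a cell's only TRB chain. In mouse-160C tumor the TRBV13-2 pair occurred in 63 rows, while the rare form was the only chain of 2 rows and the common form of 300. In mouse-160A tumor the TRBV13-1_1 pair occurred in 60 rows, with 0 rows for the rare form alone and 422 for the common form. In mouse-164B tumor the counts were 41 rows with both, 4 with the rare form alone and 1117 with the common form.

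The nearly identical share of members was lower in spleen or tumor than in the own thymus in 6 of 7 mice, with a mean difference of -8.95 percentage points (SD 5.79, n = 7, exact sign-flip permutation p = 0.0312, adjusted p = 0.042). With nearly identical chains counted as one, members were 5.16% to 10.1% of TRB-bearing thymus rows, 6.22% and 4.35% of spleen rows and 11.2% to 15.97% of tumor rows. The difference between spleen or tumor and thymus over all rows then passed the unadjusted test (log2 0.34, exact permutation p = 0.0469 over 7 mice).

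Likeness of the chains was also counted beyond these pairs. In the other members, both chains had the same V gene in 9.87% to 16.2% of thymus rows and 6.69% to 11.3% of tumor rows. The product of the first-chain and second-chain usage of each table gave 5.86% to 6.30% in the thymus and 6.07% to 11.01% in the tumor. The same J gene occurred in 12.9% to 18.6% of thymus rows, against a product of 9.79% to 10.3%, and in 10.4% to 15.5% of tumor rows, against 10.7% to 12.1%. In mouse-160A tumor it was below the product, 10.4% against 12.05%. The other members include pairs only 2 or 3 residues apart, of which 227 and 170 had the same V and the same J gene. Shares without these pairs were not computed. These are descriptions without a test.

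Which V and J segments the members used was compared with one-TRB rows of the same table. TRBV13-2 (chromosome 6, 41098330 to 41098766 in GRCm39) had the highest median share among second chains over the 14 tables, 10.5%, followed by TRBV13-1_1 with 8.63% and TRBV29 with 7.76%. Among J segments TRBJ2-7 (chromosome 6, 41520744 to 41520790) led with 17.4%, followed by TRBJ1-1 with 12.4% and TRBJ2-1 with 12.1%. TRBV13-1_1 reached 33.2% of second chains in mouse-160A tumor and was at 6.16% in mouse-160C tumor. Over the spleen and tumor tables, it reached up to 24.3% of single chains. Among single chains, TRBV13-2 had a median of 11.3% in the thymus and 10.6% in spleen or tumor. TRBJ2-7 had 18.7% and 19.1% there, so the ranking is not particular to second chains. The suffix _1 is part of the names in the tables.

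No segment passed the adjusted test. Over 31 TRBV and TRBJ genes whose median share in single chains was 1% or more, 0 were called (0% of those tested) for second chains in the thymus, and likewise 0 (0%) in spleen or tumor and 0 (0%) for first chains in either place. With an unadjusted p under 0.05 in the same exact sign-flip permutation test over 7 mice, there were 5 genes for second chains in the thymus, 5 in spleen or tumor, 9 for first chains in the thymus and 6 for first chains in spleen or tumor. Without nearly identical second chains, the counts for second chains were 7 in the thymus and 12 in spleen or tumor, and 0 passed the adjusted test in either place.

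With 7 mice the smallest p is 0.0156, so at least 10 of 31 genes would have to reach it together for any to pass, and a call of a few genes was not possible. Genes with the same sign in all 7 mice are therefore given as values. In the thymus, TRBV19 (chromosome 6, 41155309 to 41155982) made up a median 5.59% of second chains and 4.08% of single chains, with a mean log2 ratio of 0.48 (SD 0.15, from 0.26 to 0.71). In first chains it had a median of 2.99% and a mean log2 ratio of -0.45, negative in 7 of 7 mice. It was thus on opposite sides of single chains in the first and the second chain. TRBV16 (41128674 to 41129164) had 5.03% of second and 6.77% of single thymus chains, a mean log2 ratio of -0.44 (SD 0.12).

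Smaller ratios of one sign in all 7 thymus tables were seen for TRBJ1-3_1 (mean log2 ratio 0.31), TRBV3 (-0.23) and TRBJ2-7 (-0.14). Without nearly identical second chains, TRBV3 kept its sign in 7 of 7 mice (-0.35). TRBJ1-3_1 was then above 0 in 5 mice and below in 2 (0.28), and TRBJ2-7 below in 6 and above in 1 (-0.13). In spleen or tumor, TRBV5 (41039266 to 41039737) had a median of 4.62% of second and 3.21% of single chains, a mean log2 ratio of 0.47 (SD 0.15). In first chains of the same tables its mean log2 ratio was -0.60, negative in 7 of 7 mice. The limit from the order of the chains holds here too. TRBJ2-7 had a mean log2 ratio of -0.16 in second chains of spleen or tumor.

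Other first-chain genes also had one sign in all 7 mice. In the thymus the mean log2 ratio was -0.60 for TRBV4 (a median of 2.78% of first and 3.93% of single chains), -0.34 for TRBV12-1, 0.21 for TRBV14 and -0.16 for TRBJ2-7, and TRBV3, TRBJ1-4 and TRBJ2-4 had 0.12, 0.15 and 0.13. In spleen or tumor it was -0.82 for TRBV20 (0.729% of first and 1.40% of single chains), -0.66 for TRBV4 and -0.50 for TRBV19.

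**Figure D3:**
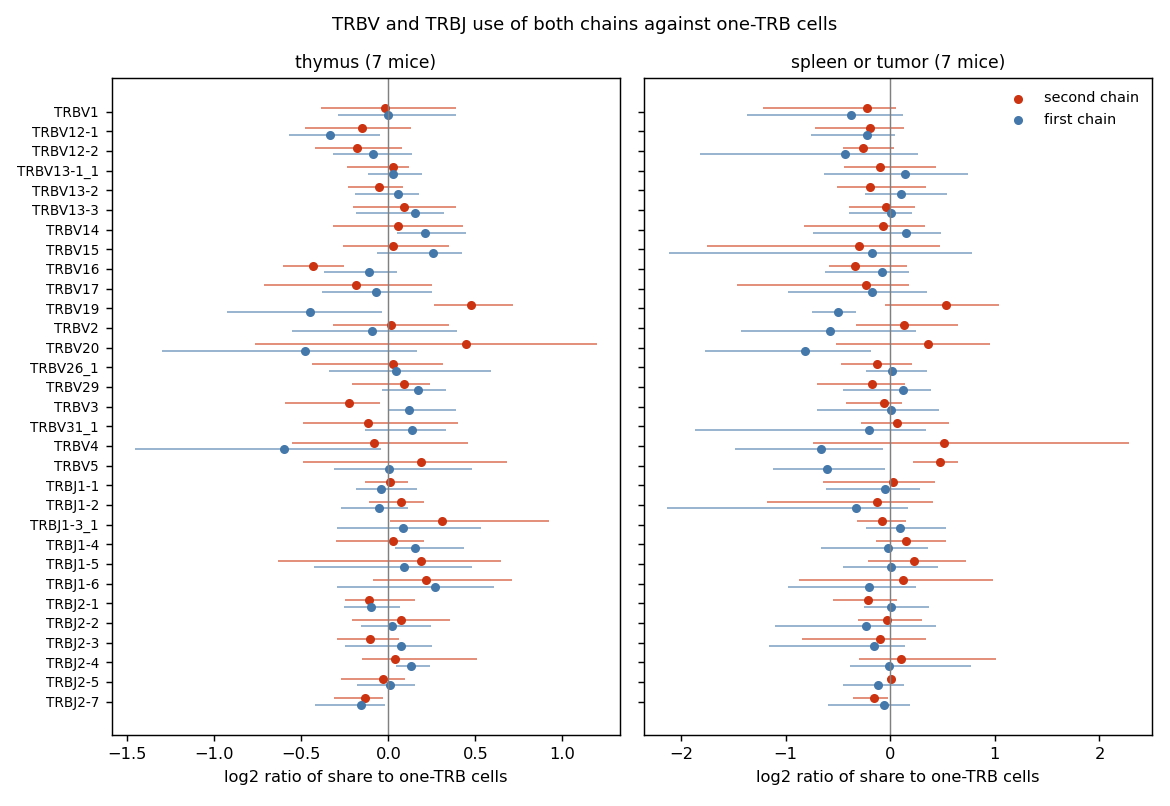
Mean log2 ratio (point) and range over 7 mice (line) of each gene's share among second (red) or first (blue) TRB chains to its share among one-TRB rows of the same table, for the thymus (left) and spleen or tumor (right), on separate axes. No gene passed the adjusted test, and the mean of TRBV19 lies right of 0 for second chains and left of 0 for first chains in both panels. The order of the chains is set by transcript count.

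How often the second chain was a frequent chain was asked next, a frequent chain being one that was the only TRB chain of at least 10 rows of the same table. In the tumor of mouse-160A, 39.5% of second chains were frequent, against 80.1% of first chains and 56.7% of single chains. The corresponding values were 8.49%, 14.4% and 13.7% in mouse-160B, 50.4%, 77.7% and 54.6% in mouse-160C, 28.5%, 44.8% and 35.9% in mouse-164B and 17.3%, 23.5% and 19.0% in mouse-164C. In each of the 5 tumors the order was first, single, second. In the spleen, second, first and single chains were frequent in 3.49%, 1.55% and 4.69% (mouse-155A) and in 7.51%, 7.51% and 8.32% (mouse-155C).

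In the thymus few chains of any kind were frequent. Second chains were frequent in 1.26% to 4.62%, first chains in 0.563% to 3.08% and single chains in 2.89% to 7.66%. Single chains are scored here against a list drawn from single chains, which raises their share by construction, so second and single chains are set side by side as a description, without a test. Second minus single was below 0 in 7 of 7 thymus tables, with a mean of -1.97 percentage points (SD 1.03, n = 7). It was -0.65 without shared-barcode chains, with 1 table above 0, and -1.01 without nearly identical second chains, with 1 table above 0. In spleen or tumor it was below 0 in 7 of 7 tables, with a mean of -5.40 points (SD 5.72, n = 7), and was -8.87 without shared-barcode chains and -1.002 without nearly identical second chains, with 2 tables above 0.

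Second chains were frequent more often than first chains in 6 of 7 thymus tables and equally often in the remaining one (mean difference 0.98 points, SD 0.68, n = 7, exact permutation p = 0.0312, adjusted p = 0.042). In spleen or tumor the difference was -13.5 points (SD 15.6, n = 7), below 0 in 5 tables and above 0 in 1, and did not pass (exact permutation p = 0.0625, adjusted p = 0.070). Without the shared-barcode chains, thymus second chains were frequent in 0.153% to 2.41% and first chains in 0% to 2.47%, and the difference was 0.24 points and did not pass (exact permutation p = 0.234 over 7 mice). Leaving out any mouse other than mouse-160C gave 0.86 to 1.12 points (exact permutation p = 0.0625 for 6 mice). Mouse-160C had a difference of 0, so 0.0625 was then the smallest possible p, and the lost call decides nothing. The spleen or tumor difference without shared-barcode chains was -14.7 points and passed the unadjusted test (exact permutation p = 0.0156 over 7 mice).

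**Figure D4:**
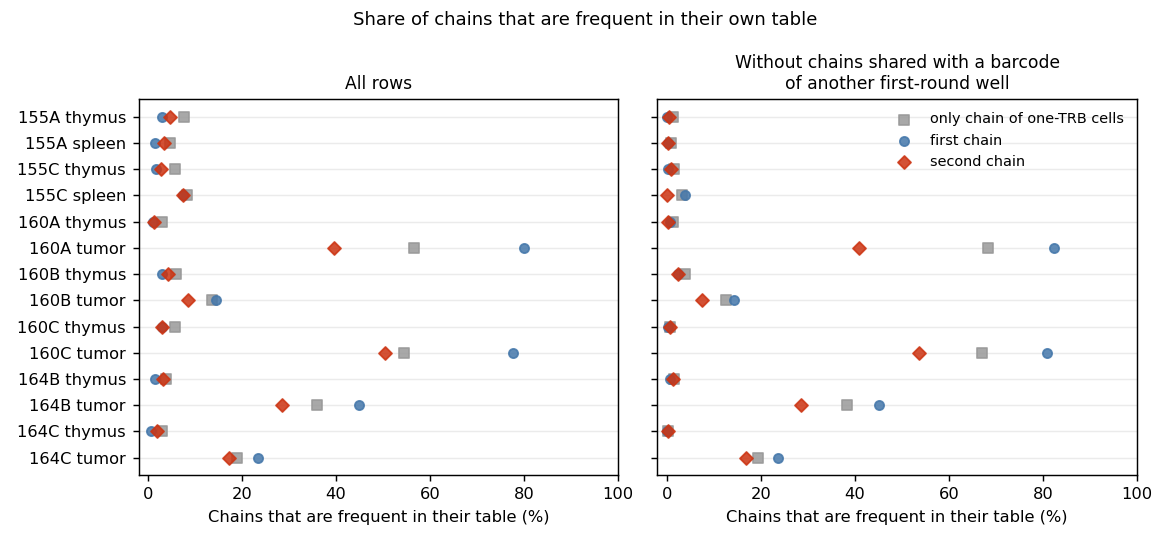
Share (%) of second chains (diamonds), first chains (circles) and only chains of one-TRB rows (squares) that are frequent in their own table, meaning the only TRB chain of at least 10 rows, for 14 tables. In the left panel all rows are used and in the right panel shared-barcode chains are left out; in the 5 tumors the second chain is lowest and the first highest in both panels.

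The same second chains were looked up in other tables. Of the second chains of tumor members, 1.91% to 15.0% were frequent in the own thymus table, and the median over the tables of other mice was 1.70% to 17.4%. For thymus members, 1.12% to 3.93% were frequent in the own spleen or tumor table and 1.83% to 3.24% at the median in tables of other mice. The ranges for the own mouse and for other mice overlapped, and no test was run on them. Shared-barcode chains were kept in this lookup, which was not repeated without them. Without them, the number of frequent chains fell from 24 to 4 in mouse-160C thymus and from 33 to 18 in mouse-164B thymus.

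The most frequent second chain of each table was of 3 kinds. In 4 tumors it was among the 3 commonest single chains of that tumor. It was TRBV23_1 with TRBJ1-4 in mouse-160A (62 second chains, 212 one-TRB rows), TRBV1 with TRBJ2-2 in mouse-160C (98 and 693), TRBV13-1_1 with TRBJ2-7 in mouse-164B (83 and 1117) and TRBV20 with TRBJ2-3 in mouse-164C (219 and 810). The 219 rows of the TRBV20 chain had 192 different first chains. In mouse-160B tumor and mouse-155C spleen the most frequent second chain was a nearly identical form that occurred beside only 1 first chain, in 21 and 5 rows, and was the only TRB chain of 0 and 1 rows.

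In thymus tables and in the spleen of mouse-155A, the leading second chain was mostly one that was most abundant in a tumor of another mouse. The TRBV13-1_1 with TRBJ2-7 chain of mouse-164B tumor, whose common form is printed above, led in the thymus of mouse-155C (7 second chains, 87 one-TRB rows), mouse-160C (8 and 107) and mouse-164C (7 and 44). Of those one-TRB rows, 71, 83 and 32 were shared-barcode chains. The TRBV12-1 with TRBJ1-2 chain, with 1036 one-TRB rows in mouse-164C tumor, led in mouse-155A spleen (7 and 70), mouse-160A thymus (4 and 12, tied with another chain) and mouse-164B thymus (17 and 77), and 63, 11 and 61 of those one-TRB rows were shared-barcode chains. In mouse-155A thymus the TRBV13-1_1 with TRBJ2-4 chain of mouse-160A tumor led with 4 second chains. In mouse-160B thymus the leading chain, TRBV3 with TRBJ1-2 (14 and 142), was most abundant in that table itself, with 2 shared-barcode rows among the 142.

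Pairs that recurred in separate rows were examined next, leaving out nearly identical pairs. Of 18742 different pairs counted within tables, 323 occurred in at least 2 rows and 71 in at least 5, of which 68 were in tumors and 3 in the thymus. For each of the 71, rows with both chains were taken as a share of rows with both plus rows with the rarer chain alone. Marked rows and rows with the rarer chain beside another TRB chain were left out of these shares. The printed TRBV14 chain of mouse-164B tumor, for instance, was annotated in 233 rows of all kinds, with 51 for the pair and 20 alone. These shares fell apart into a low set of 59 pairs, from 1.18% to 12.96% (median 2.99%), and a high set of 12, from 48.9% to 100% (median 76.7%). A limit of 40%, chosen after these values were seen, separates them.

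In the low set, both chains of all 59 pairs were frequent chains of their tumor, and the rarer one was the only TRB chain of 47 to 810 rows. Each such pair occurred in 5 to 14 rows. One example is TRBV12-1 with TRBV20 in mouse-164C tumor, which occurred together in 10 rows while the chains were alone in 1036 and 810 rows. Where both chains of a member were frequent and led to different TRA chains in one-TRB rows, the TRA chains of the member could be compared with both. Of 372 such members with 2 TRA chains, 51.3% held the leading TRA chain of the first TRB chain together with that of the second. Of 469 with 1 TRA chain, 55.4% held that of the first and 33.9% that of the second TRB chain.

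The high set held 12 pairs, 11 of them different, in 356 rows or 1.49% of members. The largest was the printed TRBV12-2 and TRBV31_1 pair of mouse-164C tumor, present in 100 unmarked rows, with 89 and 59 rows for either chain alone and another 107 rows marked as multiplets. Of the 95 unmarked rows with a TRA chain, 95 held the same one. That TRA chain was also found in 15 of 19 one-TRB rows of TRBV12-2 and 17 of 20 of TRBV31_1 that had a TRA chain. TRBV31 lies at the far end of the locus in the opposite orientation (chromosome 6, 41534627 to 41535386, minus strand). TRBV12-2 was the first chain in 57 of the 100 rows.

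In mouse-164B tumor, the TRBV14 and TRBV29 pair occurred in 51 rows, with 20 and 25 for either alone, and 45 of 45 rows with a TRA chain held the same one. The TRBV15 and TRBV16 pair occurred in 49 rows (24 and 18 alone), of which only 3 had a TRA chain, and 2 of these 3 held the same one. The one-TRB rows of these chains that had a TRA chain (2 for TRBV15 and 1 for TRBV16) held another. A TRBV15 and TRBV29 pair occurred in 29 rows (13 and 8 alone), with one TRA chain in 20 of 20. A TRBV16 and TRBV4 pair occurred in 21 rows (36 and 9 alone), with one TRA chain in 21 of 21. In mouse-160A tumor the TRBV13-2 and TRBV4 pair occurred in 49 rows, with TRBV13-2 alone in 51 and TRBV4 alone in 3, and 49 of 49 rows held the same TRA chain. TRBV13-2 was the first chain in all 49 of these rows, and the median ratio was 0.20. In mouse-160C tumor, TRBV26_1 with TRBV5 occurred in 23 rows (24 and 26 alone), and 2 of the 4 rows with a TRA chain held the same one.

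Smaller pairs of the high set were found in the tumors of mouse-160B (TRBV30_1 with TRBV5, 7 rows) and mouse-164C (TRBV26_1 with TRBV4, 7 rows) and in the thymus of mouse-160A (TRBV12-2 with TRBV17, 5 rows), mouse-160B (the 2 printed TRBV29 chains, 6 rows) and mouse-164B (TRBV14 with TRBV29, 9 rows). The rows of a pair came from 4 to 8 sublibraries and 2 to 4 first-round wells. None of the 356 rows carried a shared-barcode chain. The median transcript ratio of these pairs was 0.20 to 0.80.

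**Figure D5:**
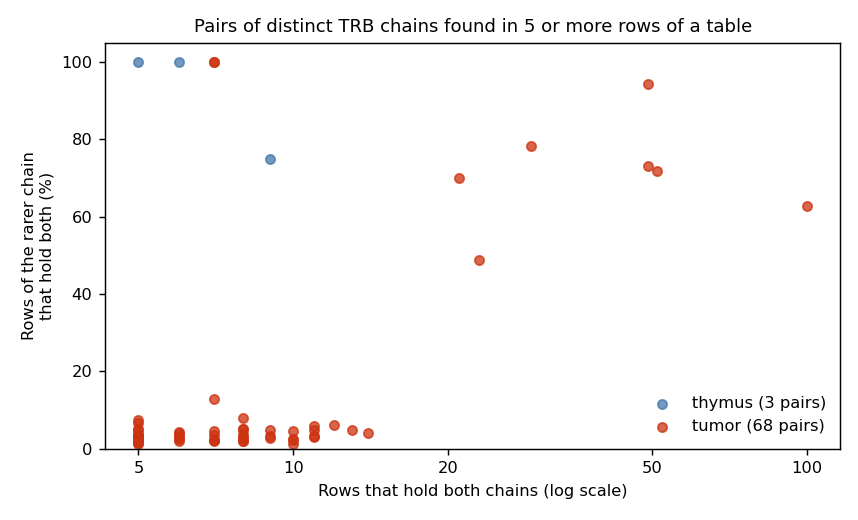
Each point is 1 of 71 pairs of clearly different TRB chains found in at least 5 rows of a table. The x axis (log scale) gives the rows with both chains. The y axis gives the share (%) of rows with both, out of rows with both or the rarer chain alone. Of the pairs, 59 lie at or below 12.96% and 12 at or above 48.9%. The TRBV12-2 and TRBV31_1 pair of mouse-164C tumor lies farthest right.

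Some pairs were present in both tissues of a mouse. Counting pairs of clearly different chains, the 7 own combinations of thymus with spleen or tumor shared 0 to 4 pairs each and 13 in all, while the 42 combinations across mice shared 0 to 7 each and 69 in all. Of the 13 shared within a mouse, 6 recurred in at least 2 rows on both sides. No such count is given for the combinations across mice. The TRBV14 and TRBV29 pair of mouse-164B was in 9 thymus and 51 tumor rows, its TRBV15 and TRBV16 pair in 3 and 49, and its TRBV15 and TRBV29 pair in 2 and 29. The TRBV29 pair of mouse-160B was in 6 thymus and 3 tumor rows, a TRBV16 and TRBV26_1 pair of mouse-160C in 2 and 4, and a TRBV13-3 and TRBV31_1 pair of mouse-155C in 3 thymus and 2 spleen rows. Outside the own mouse, the first and the second of these 6 occurred in 1 row each and the others in 0.

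The TRA chains of members were compared with those of one-TRB rows, a readout that entered the choice of members only through the multiplet mark, which removed rows with over 2 TRA chains from both kinds. Members had a second TRA chain more often in every table. In the thymus, 6.04% to 15.4% of members and 2.45% to 6.50% of one-TRB rows had 2 TRA chains. In the spleen the shares were 13.7% against 3.87% (mouse-155A) and 10.1% against 2.46% (mouse-155C). In the tumor they were 25.9% against 6.33% in mouse-160B, 21.9% against 4.57% in mouse-160A, 18.8% against 4.13% in mouse-160C, 29.2% against 10.5% in mouse-164B and 24.5% against 7.26% in mouse-164C. Members without any TRA chain were 45.2% to 63.1% in the thymus and 30.1% to 42.1% in the tumor, below the 64.5% to 82.1% and 60.8% to 76.8% of one-TRB rows.

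The ratio of members to one-TRB rows was 2.43 in the thymus (log2 1.28 ± 0.07, SD, n = 7) and 3.84 in spleen or tumor (log2 1.94 ± 0.27, SD, n = 7), above 1 in 7 of 7 mice each (exact sign-flip permutation p = 0.0156, adjusted p = 0.033). The ratio was higher in spleen or tumor than in the own thymus in 7 of 7 mice, by a factor of 1.58 (exact permutation p = 0.0156 over 7 mice, adjusted p = 0.033). Since members had more TRB transcripts than one-TRB rows, rows with at least 4 TRB transcripts were compared alone. This sets a lower limit but does not match the depth of both kinds of row, and TRA depth was not matched. There the ratios were 1.71 and 1.99, again above 1 in 7 of 7 mice (exact permutation p = 0.0156, adjusted p = 0.033 each). The difference between tissues was then a log2 of 0.22 and did not pass (exact permutation p = 0.203 over 7 mice).

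Within the members, the second TRA chain went with clearly different rather than nearly identical TRB pairs. In the thymus, 7.21% to 18.0% of members with clearly different chains and 2.63% to 10.2% of nearly identical ones had 2 TRA chains, a ratio of 2.25 (log2 1.17 ± 0.56, SD, n = 7) that was above 1 in 7 of 7 mice (exact permutation p = 0.0156, adjusted p = 0.033). In spleen or tumor the ratio was 1.61 (log2 0.69 ± 0.54, SD, n = 7), above 1 in 6 of 7 (exact permutation p = 0.0312, adjusted p = 0.042).

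Markers of unconventional T cells were also looked up. Invariant NKT-like rows, with TRAV11 or TRAV11D joined to TRAJ18, were 6.80% to 12.5% of thymus members with a TRA chain and 5.91% to 11.3% of one-TRB rows with one. The ratio was 1.09 (log2 0.13 ± 0.09, SD, n = 7), above 1 in 6 of 7 mice (exact permutation p = 0.0312, adjusted p = 0.042). A row counted if either of its TRA chains matched, and members had 2 TRA chains more often than one-TRB rows. Members thus had more chances to match, and the ratio was not tested against this. In the spleen and tumor tables such rows were at most 1.23% of members. MAIT-like rows, with TRAV1_1 and TRAJ33, were 1 of 14276 members and 2 of 52638 one-TRB rows with a TRA chain. All annotated chains were TRA (157652) or TRB (256940), so no γδ or immunoglobulin chain was available as a marker.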

How the data were processed

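The authors assembled TRA and TRB chains of CD8+ T cells with the Parse Biosciences TCR pipeline (version not given in the sources used here; GRCm39 in the submitters' processing notes). They deposited, for each of 14 tables, whole-number transcript and read counts of up to 2 TRA and 2 TRB chains per barcode, with a multiplet mark, and a chain annotation with nucleotide sequences. Raw counts were used as deposited. Tissue and mouse came from the names of the tables. The 8 sublibraries hold cells of all tables and are in no group. Genotype and tumor model were not compared.

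Chains were matched by V gene and CDR3 amino acids. Thinning to 4 or 8 TRB transcripts used the hypergeometric probability. Tests were exact two-sided sign-flip permutation tests over mice with Benjamini–Hochberg adjustment, over 19 comparisons (2 of them, second against single chains, are given as descriptions only) or, for usage, over the 31 TRBV and TRBJ genes whose median share was 1% or more (pseudocount 0.5 rows, threshold 0.05). P-values measure the spread between mice, each with 1 table per tissue. Scripts were tested on simulated data. Versions were Python 3.11.15, pandas 2.3.3, numpy 2.4.6 and scipy 1.17.1.

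Named chains were the most frequent second chain of each table. Named genes were the leading 3 TRBV and 3 TRBJ genes by median share and, where none passed the test, up to 5 with the same sign in all 7 mice, by absolute mean log2 ratio. The members and lists were chosen with earlier results of these data known. The shared-barcode settings and those that leave nearly identical chains out of ratio, usage, frequency and TRA results were chosen after seeing the data, as were the recurring pairs with their 40% limit.

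Intervals (95%, Clopper–Pearson) cover counting error only. Of the annotation tables, 3 end in an unfinished line, and they cover 92.6% (mouse-160B thymus), 40.5% (mouse-164B thymus) and 29.9% (mouse-164C tumor) of barcodes, against 100% elsewhere, which limits nucleotide comparisons there. Gene positions are from GENCODE on GRCm39. Clonotype tables were not used here. Alternatives covered depth, multiplets, chain definitions, thresholds, pseudocounts and leaving out each mouse or sublibrary.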

Additional observations from a re-analysis of the deposited data

Results flagged for a closer look

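The gap between second and first chains in how often they were frequent differed between tissues. Spleen or tumor minus own thymus was -14.5 percentage points (SD 15.1, n = 7), lower in 6 of 7 mice and higher in 1 (exact sign-flip permutation p = 0.0312, adjusted p = 0.042). The value was -9.65 without nearly identical second chains and did not pass (exact permutation p = 0.0625 over 7 mice).

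The excess of 2 TRA chains among members over one-TRB rows was larger in spleen or tumor than in the own thymus, by 0.66 on the log2 scale (SD 0.22, n = 7), in 7 of 7 mice (exact sign-flip permutation p = 0.0156, adjusted p = 0.033). In rows with at least 4 TRB transcripts it was 0.22 and did not pass (exact permutation p = 0.203 over 7 mice).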

How the results depend on the processing

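Of 213 alternatives, 183 kept both the direction and the side of the 0.05 threshold (unadjusted exact permutation p), 2 turned the direction, 20 lost the call and 8 gained it. For the log2 ratio of the share in spleen or tumor to that in the own thymus (0.19), counting frequent second chains as absent gave -0.17 (tumors alone -0.12, and at 4 transcripts 0.24, where the call was lost). That setting removes a larger share of members from tumors than from the thymus. Nearly identical chains counted as one gave 0.34, the same without shared-barcode chains 0.37, and thinning to 4 or 8 transcripts 0.64 and 0.66, all past the threshold. The transcript ratio difference gained the call in rows with at least 8 transcripts (0.137), where depth was not matched between tissues. For frequent chains, second minus first in the thymus lost the call from 20 rows (0.532 points), from 0.5% of rows (0.070) and without shared-barcode chains (0.236), while in spleen or tumor it gained the call under the same settings (-13.2, -12.3 and -14.7). Second minus single, described without a test in the text, moved in the thymus from -1.97 to -0.611 with frequent taken from 0.5% of rows, and in spleen or tumor from -5.40 to -1.002 without nearly identical chains. The gap between tissues lost it without nearly identical chains (-9.65), and the TRA gap at 4 or more transcripts (0.22). The cause of these changes was not tested. No usage setting called a gene; with 7 mice, a call of only a few genes was not possible.

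Leaving out each mouse gave 0.13 to 0.28 for the share (each sublibrary 0.18 to 0.20), 0.62 to 0.71 at 4 transcripts, 0.0653 to 0.107 for the ratio, and log2 values of 1.26 to 1.297 (thymus), 1.89 to 2.02 (spleen or tumor) and 0.61 to 0.72 (their gap) for 2 TRA chains. Second minus first ran from 0.858 to 1.14 points in the thymus, from -16.1 to -8.97 in spleen or tumor, and from -17.0 to -10.1 for the gap between tissues, whose call was lost without any mouse other than mouse-155A (p = 0.0625). Second minus single ran from -2.21 to -1.78 and from -6.16 to -3.43. With 6 mice, the smallest p of the exact permutation test is 0.0312, or 0.0625 where 1 of them has a difference of 0. Mouse-160C thymus and mouse-155C spleen had a difference of 0 for second minus first. Shallow rows limit what can be seen, since 43.9% to 71.2% of rows had 1 TRB transcript.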

Other observations

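Of 18630 different pairs of clearly different chains, 87 (0.467%) were seen in more than 1 mouse. Few pairs recurred at all, since 323 of 18742 pairs counted within tables occurred in at least 2 rows. Sharing was also rare within a mouse. The 7 own combinations of thymus with spleen or tumor shared 13 pairs, and the 42 combinations across mice shared 69. The median was 1 pair per combination for both kinds. Whether pairs were specific to a mouse was not tested. Several pairs of the high set were also present in rows marked as multiplets, such as the TRBV14 and TRBV29 pair of mouse-164B tumor in 29 marked rows, the TRBV15 and TRBV16 pair in 26 and the TRBV13-2 and TRBV4 pair of mouse-160A tumor in 10.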
